A study of Homo sapiens with 10 samples.

Results

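The genes for potassium channels were taken as the protein-coding genes of GENCODE whose symbol starts with KCN, which gave 96 of 20033 protein-coding genes. Membership was set by the symbol and by no measured value, though the list was chosen with earlier results of these data known. By role they comprised 17 pore-forming subunits of voltage-gated channels (KCNA, KCNB, KCNC and KCND), 10 silent subunits that join other voltage-gated subunits (KCNF, KCNG, KCNS and KCNV), 5 KCNQ genes, 8 KCNH genes, 8 channels activated by calcium or sodium (KCNMA, KCNN, KCNT and KCNU), 16 inward rectifiers (KCNJ), 15 two-pore channels (KCNK), and 17 auxiliary or regulatory genes (KCNAB, KCNE, KCNIP, KCNMB and KCNRG).

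The study mapped H3K27ac and H3K18ac, acetyl marks of active promoters and enhancers, by ChIP-seq in a pair of related human prostate cancer lines. C4-2B is a castration-resistant adenocarcinoma line, and C4-2BER is its derivative that resists the drug enzalutamide, was kept in that drug throughout, and is labelled as neuroendocrine-like. Each mark was profiled in 2 libraries per line beside 1 input library per line, all from chromatin fixed with DSG and formaldehyde. The replicates were merged before peaks were called, so each mark had 1 peak list per line, no value below carries a replicate error, and the lines were compared without a test. Each line is a single model, so line and drug exposure cannot be told apart.

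Potassium channels let potassium leave the cell, which holds the resting membrane potential and ends the action potential. Voltage-gated, calcium-activated, inwardly rectifying and two-pore channels do this under different conditions, and auxiliary subunits tune their gating and their transport to the surface. In neurons and endocrine cells the mix of channels sets firing and secretion, and many of the genes are also used by epithelia for volume control and proliferation.

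In C4-2BER the lists held 72971 peaks of H3K27ac and 197948 of H3K18ac, and C4-2B had 68034 and 198451. Values are means over all cells of a culture, in which fewer marked cells and less mark per cell cannot be told apart. The read depth behind them is unknown, so an absent peak shows only that none was called. The unit of a peak is its fold enrichment, the ChIP signal over the local background as the peak caller averaged it across the peak, which is scaled to each list's own background. As a check of the labels, all 8 luminal prostate markers examined, KLK3 and TMPRSS2 among them, had an H3K27ac peak at the promoter in both lines, with fold enrichments summing to 134 (C4-2BER) and 184 (C4-2B). Of 8 neuroendocrine markers, 4 had one in C4-2BER and 3 in C4-2B, summing to 17.1 and 15.3. The defining markers CHGA, INSM1, NEUROD1 and SCG2 had none in either line.

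The promoters on which the largest differences below fell were CpG-rich. The 250 bases that precede the most upstream exon of the gene within 1000 bp of the canonical start are shown for 4 genes whose promoter signal was lower in C4-2BER and for KCNK1, which carried strong signal in both lines, so that the sequence under the changed peaks can be read beside one that kept its peaks. They were read from hg38 on the strand of the gene, 5′ to 3′, with every CpG in capitals.
KCNMA1: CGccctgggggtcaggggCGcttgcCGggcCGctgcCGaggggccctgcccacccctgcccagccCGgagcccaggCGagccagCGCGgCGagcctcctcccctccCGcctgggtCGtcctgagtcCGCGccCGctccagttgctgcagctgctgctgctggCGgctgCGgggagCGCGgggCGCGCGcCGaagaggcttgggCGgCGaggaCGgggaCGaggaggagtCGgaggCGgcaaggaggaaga
KCNN2: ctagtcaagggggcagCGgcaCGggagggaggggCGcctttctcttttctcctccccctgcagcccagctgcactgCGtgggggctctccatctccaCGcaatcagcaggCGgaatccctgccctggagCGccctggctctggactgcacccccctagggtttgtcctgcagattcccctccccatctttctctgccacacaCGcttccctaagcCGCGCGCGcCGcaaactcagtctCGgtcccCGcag
KCNQ5: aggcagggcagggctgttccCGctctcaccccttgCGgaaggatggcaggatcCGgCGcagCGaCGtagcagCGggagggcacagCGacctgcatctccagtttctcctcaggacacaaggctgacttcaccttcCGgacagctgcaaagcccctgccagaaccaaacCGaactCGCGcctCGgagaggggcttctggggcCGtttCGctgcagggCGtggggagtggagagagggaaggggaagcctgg
KCND2: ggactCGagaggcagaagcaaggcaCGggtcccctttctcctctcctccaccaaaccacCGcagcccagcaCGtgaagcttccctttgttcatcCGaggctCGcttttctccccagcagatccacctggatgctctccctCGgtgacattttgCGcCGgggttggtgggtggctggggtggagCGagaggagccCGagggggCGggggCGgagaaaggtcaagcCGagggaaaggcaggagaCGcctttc
KCNK1: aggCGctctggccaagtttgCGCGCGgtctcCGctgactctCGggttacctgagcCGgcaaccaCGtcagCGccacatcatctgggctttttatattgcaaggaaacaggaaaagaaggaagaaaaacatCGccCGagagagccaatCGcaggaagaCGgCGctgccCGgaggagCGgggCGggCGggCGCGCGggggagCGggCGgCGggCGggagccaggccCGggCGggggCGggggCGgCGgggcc
The KCNMA1 stretch is chr10:77638370-77638619 on the minus strand and held 29 CpG. The KCNN2 stretch, chr5:114361714-114361963 on the plus strand, held 15, and that of KCNQ5, chr6:72621542-72621791 on the plus strand, held 16. KCND2, at chr7:120272925-120273174 on the plus strand, held 15, and KCNK1, at chr1:233613856-233614105 on the plus strand, held 30. GC content ran from 63.6% in KCND2 to 77.6% in KCNMA1.

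The question for the whole family was whether genes of neuronal excitability carried active marks at their promoters, and whether this differed between the lines. A promoter was scored by the strongest peak within 1000 bp of the transcription start site (TSS) of the canonical transcript. H3K27ac marked 41 of the 96 KCN promoters (42.7%, 95% Wilson interval 33.3 to 52.7) in C4-2BER and likewise 41 in C4-2B, against 69.6% and 69.1% of all protein-coding promoters. H3K18ac was wider, with 72 promoters in C4-2BER (75%, 65.5 to 82.6) and 82 in C4-2B (85.4%, 77.0 to 91.1), against 81.1% and 83.8% of all genes. The intervals cover counting error over genes only.

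Where a KCN promoter was marked, the signal was low. For H3K27ac the marked KCN promoters of C4-2BER had a median fold enrichment of 3.98, and those of C4-2B one of 4.21, against 12.4 and 18.2 over all marked promoters. Only 6 of the 41 marked genes in C4-2BER exceeded that genome-wide median (KCND3, KCNG1, KCNG3, KCNK1, KCNN2 and KCNS3), as did 8 of 41 in C4-2B, among them KCNG3, KCNJ11, KCNK1, KCNMA1, KCNN2, KCNQ5 and KCNS3. For H3K18ac the medians were 3.39 and 3.46 against 5.59 and 7.00. The share of CpG-rich promoters was close, at 58 KCN promoters (60.4%) against 59.9% of all. Among the CpG-rich ones H3K27ac marked 60.3% of KCN genes in C4-2BER and 56.9% in C4-2B, compared with 90% and 89.5% of all CpG-rich promoters.

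**Figure D1:**
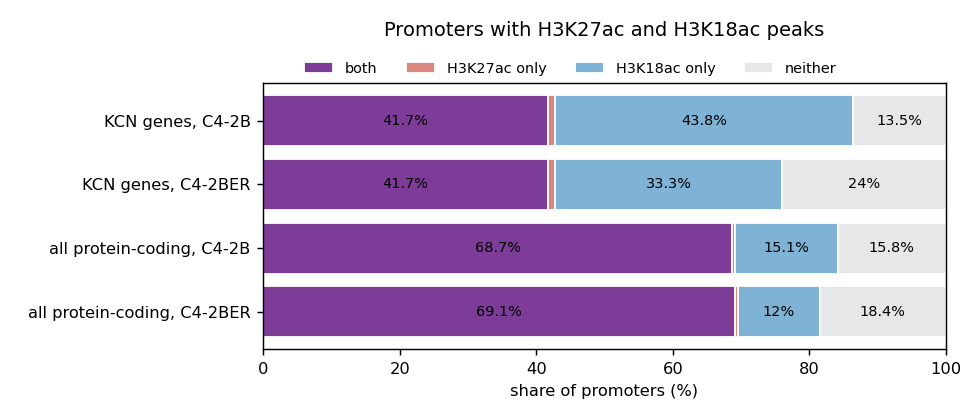
Share of promoters (%) with peaks of both marks, of a single mark or of neither, for the 96 KCN genes and all 20033 protein-coding genes in each line. H3K18ac without H3K27ac took 43.8% of KCN promoters in C4-2B and 33.3% in C4-2BER, against 15.1% and 12% of all promoters.

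A large part of the family carried H3K18ac without H3K27ac. This state held 42 KCN promoters in C4-2B (43.8%, 34.3 to 53.7) and 32 in C4-2BER (33.3%, 24.7 to 43.2), while over all genes it held 15.1% and 12%. At 29 promoters it was the state in both lines, with H3K18ac fold enrichments between 2.23 and 4.27 in C4-2B and between 2.19 and 3.72 in C4-2BER. Values were lower in C4-2BER at 23 of them. Over all promoters with an H3K18ac peak in both lines, 14.2% were higher in C4-2BER, so a lower value there was the common case. Among the 29 genes were KCNQ3, a subunit of the neuronal M current that restrains repeated firing, and KCNK2 and KCNK3, background channels that set the resting potential. KCNT2, a sodium-activated channel, and the auxiliary subunits KCNAB1 and KCNE3 were also among the 29. Another 8 had neither mark in the C4-2BER window, and 5 added an H3K27ac peak there. In 35 genes both marks were present in both lines, and 13 had neither mark in either.

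Promoters were called changed where a peak was found in 1 line only or where the fold enrichments differed at least 2 times. A call is of the window, and a line without a peak there may have one just outside it. For H3K27ac 6 KCN promoters were increased in C4-2BER (6.25%, against 3.31% of all protein-coding genes) and 10 were decreased (10.4% against 8.01%). For H3K18ac 1 was increased (1.04% against 2.1%) and 12 were decreased (12.5% against 6.12%). Of the 96 genes, 24 were called in at least 1 mark and 5 in both. In the 36 promoters with an H3K27ac peak in both lines, the median log2 ratio of C4-2BER over C4-2B was -0.20, compared with -0.51 over all shared promoters, and 9 (25%) were higher in C4-2BER compared with 11.8%. For H3K18ac the median over 71 shared promoters was -0.24 against -0.34. Ratios fell as signal rose in these lists. After the lines were rescaled along that trend, the H3K27ac medians were -0.09 for KCN genes and -0.11 for all. For H3K18ac they were -0.08 and -0.14. Ratios were also centred, within bins of GC content, on the median of all shared promoters. The KCN medians were then 0.35 for H3K27ac and 0.12 for H3K18ac. Why these adjustments differ was not tested.

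**Figure D2:**
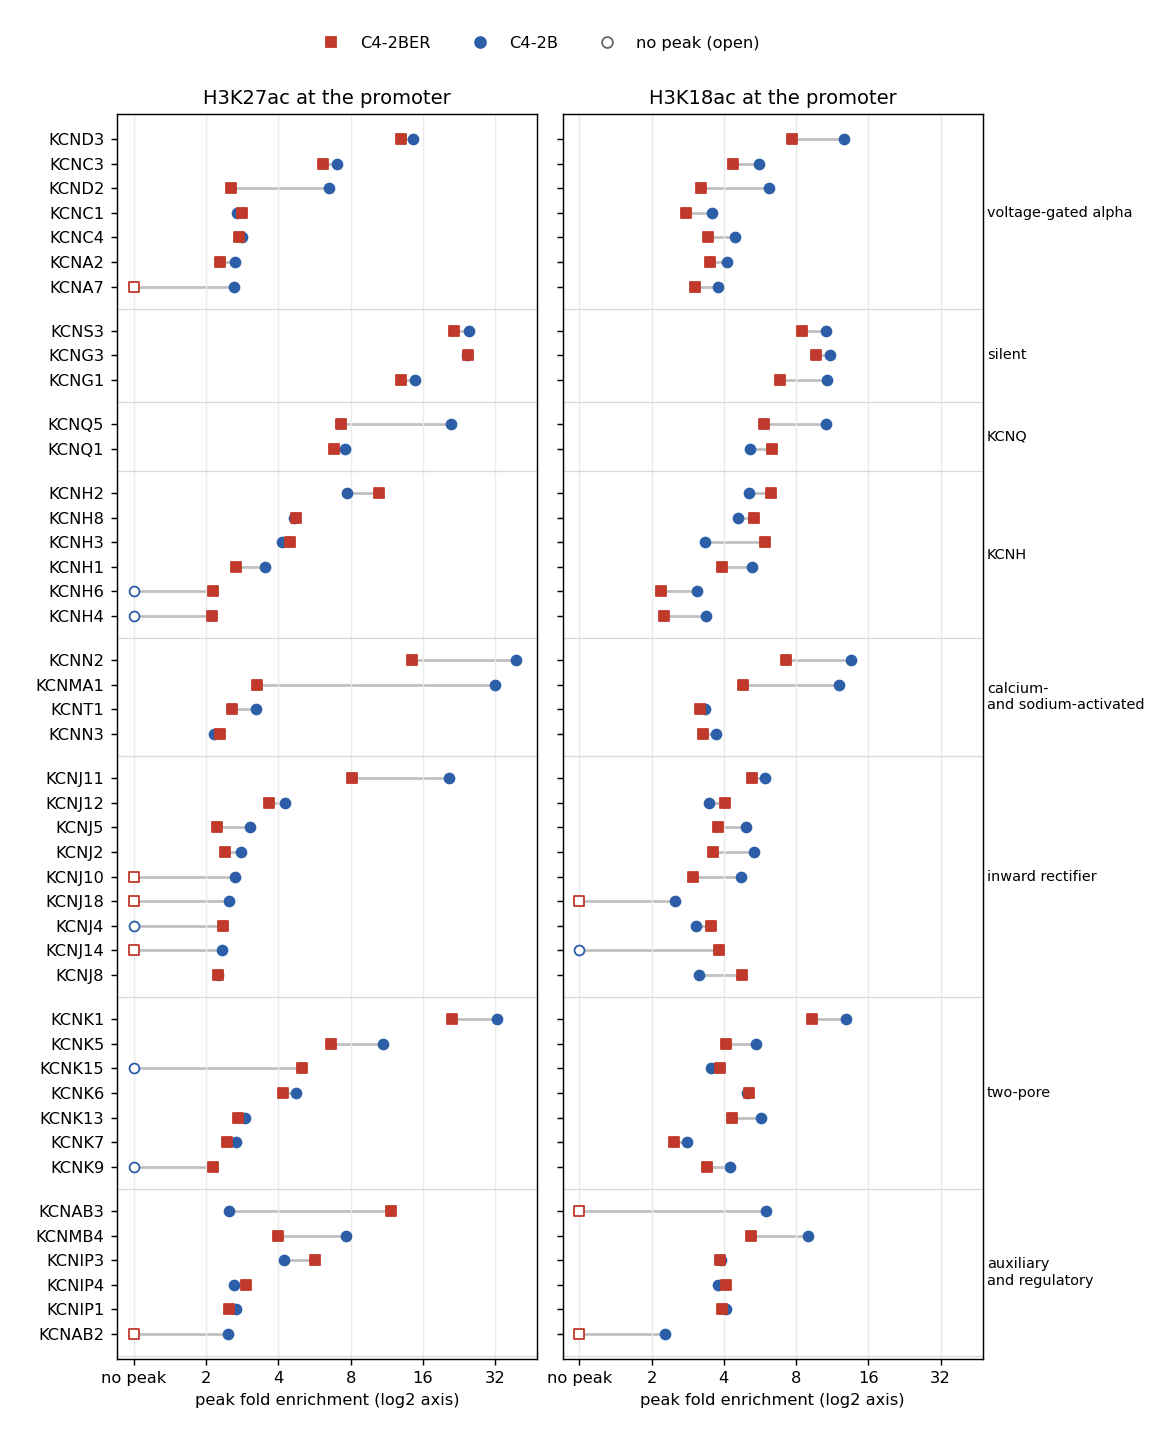
Fold enrichment of the strongest promoter peak (log2 axis) in C4-2BER (squares) and C4-2B (circles) for 44 KCN genes with an H3K27ac peak in either line, by role, H3K27ac at left and H3K18ac at right, with open symbols where no peak was called. The widest gaps among genes marked in both lines were at KCNMA1, KCNAB3, KCNQ5 and KCNN2, while KCNG3, KCNS3 and KCNK1 were strong in both.

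Among the channels gated by calcium or sodium, the strongest promoters of C4-2B were those that fell. KCNMA1 (chr10:76869601-77638369, minus strand) encodes the pore of the large-conductance channel that opens on calcium and depolarization. H3K27ac there reached a fold enrichment of 32.1 in C4-2B and 3.26 in C4-2BER, a log2 ratio of -3.30, and its H3K18ac fold enrichment was 12.1 and 4.81, a log2 ratio of -1.33. It was the only KCN promoter with a peak of both marks in both lines that was called decreased in both marks. The C4-2B peak of H3K27ac was among the strongest of its list, above 98.8% of all peaks, whereas the C4-2BER peak was above 49.0% of its own.

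KCNN2, a small-conductance calcium-activated channel that shapes the pause after a spike, had the highest H3K27ac value of the family in C4-2B, 39.0, and kept a strong peak of 14.4 in C4-2BER (log2 -1.43). That call ended when fold enrichments were rescaled by a line fitted over regions shared by the cell lines (-0.92), or when the ratio was centred among promoters of like GC content (-0.86). Its H3K18ac values were 13.5 and 7.23 (log2 -0.90), short of the call. KCNN4, the intermediate-conductance channel of blood and epithelial cells, had no H3K27ac promoter peak, and its H3K18ac peak of 2.89 in C4-2B had no counterpart in the C4-2BER window. That H3K18ac call ended, among other settings, where every annotated TSS was scored. Over the KCNN4 body the order was opposite, with H3K27ac cover of 1.29 kb in C4-2BER and none in C4-2B. Its H3K18ac cover was 2.85 kb in C4-2BER and 1.59 kb in C4-2B. KCNT1, the other sodium-activated channel, stayed low at 3.23 and 2.57 for H3K27ac.

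In the KCNQ genes all 4 promoters marked by H3K27ac were lower in C4-2BER, with a median log2 ratio of -0.80. Most promoters were lower there, since over all shared promoters only 11.8% were higher in C4-2BER and the median was -0.51. KCNQ5, which contributes to the M current, fell from 21.0 in C4-2B to 7.27 in C4-2BER for H3K27ac (log2 -1.53, or -0.98 and no longer called when centred within bins of GC content), and its H3K18ac was 10.7 and 5.87 (log2 -0.86). KCNQ1, which repolarizes heart muscle and serves epithelial transport, was at 7.59 and 6.83. For H3K18ac the order of the lines was opposite at KCNQ1 (5.12 in C4-2B and 6.34 in C4-2BER), so the peak values of the marks did not move together there. The H3K18ac peak ran from -1595 to 8304 bp around the TSS in C4-2B and from -1601 to 4253 bp in C4-2BER. Values are averaged over a peak, and the part of the width was not tested. The KCNQ1 window is shared with TRPM5.

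Of the voltage-gated pore subunits, the pair that carries the fast A-type current in neurons and heart split. KCND2 had H3K27ac at 6.47 in C4-2B and 2.53 in C4-2BER (log2 -1.35, or -0.80 and not called when centred on GC content), and H3K18ac at 6.15 and 3.21 (log2 -0.94). Its C4-2BER H3K27ac peak lay wholly downstream of the TSS, from 98 to 399 bp, so that the KCND2 stretch printed above was under an H3K27ac peak in C4-2B alone, while H3K18ac peaks covered it in both lines. KCND3 stayed high at 14.5 and 12.9 for H3K27ac, with H3K18ac at 12.6 and 7.66. KCNA7 had a weak H3K27ac peak in C4-2B only (2.60). KCNC1, a channel of fast-spiking neurons, was alike at 2.69 and 2.83. KCNA3, the lymphocyte channel, and KCNC2 had no H3K27ac promoter peak, and their H3K18ac peaks (2.40 and 2.49) were called in C4-2B alone.

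Silent subunits held some of the strongest promoters, and their H3K27ac values were close between the lines. KCNG3 had H3K27ac at 24.5 in C4-2B and 24.6 in C4-2BER, KCNS3 had 25.0 and 21.5, and KCNG1 had 14.9 and 12.9. For H3K18ac KCNG1 was at 10.8 and 6.84 (log2 -0.65), KCNS3 at 10.7 and 8.47 (log2 -0.34) while KCNG3 had a log2 ratio of -0.19. The other 7 silent genes had no H3K27ac promoter peak in either line, and among them an H3K18ac peak of KCNV2 (2.77) was found within the window in C4-2B only. The KCNG3 window is shared with MTA3, so its signal cannot be assigned to either gene.

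Among KCNH genes, KCNH2, the channel that repolarizes the heart and is found in many tumours, was higher in C4-2BER in both marks. It was at 7.76 in C4-2B and 10.5 in C4-2BER for H3K27ac and at 5.07 and 6.26 for H3K18ac, below the 2-fold mark. Its H3K18ac peak ran from -1886 to 9659 bp around the TSS in C4-2B and from -2886 to 4808 bp in C4-2BER. The part of that width in the averaged values was not tested. The largest H3K18ac log2 ratio in favour of C4-2BER at a shared KCN promoter was at KCNH3 (0.83), with 3.33 in C4-2B and 5.94 in C4-2BER, also short of the call. The C4-2B value is the mean of a peak 16995 bp wide and the C4-2BER value that of one of 3963 bp, and the part of the width was not tested. KCNH4 and KCNH6 were called increased for H3K27ac on weak peaks in C4-2BER alone (2.12 and 2.14). Their H3K18ac values were lower there, at 3.37 in C4-2B and 2.25 in C4-2BER for KCNH4 and at 3.08 and 2.20 for KCNH6. Over the gene body H3K27ac peaks also covered less in C4-2BER. KCNH4 had 2.021 kb in C4-2B and 0.653 kb in C4-2BER, and KCNH6 had 4.571 and 1.295 kb.

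Inward rectifiers were marked weakly, with a median H3K27ac fold enrichment of 2.71 in C4-2B and 2.38 in C4-2BER. KCNJ11, the pore of the channel that couples ATP to insulin secretion, stood apart with 20.5 in C4-2B and 8.13 in C4-2BER (log2 -1.33), while H3K18ac was 5.94 and 5.23. The H3K27ac call ended when rescaled (-0.97) or centred on GC content (-0.76). Its C4-2BER peak was 9219 bp wide and reached 6771 bp into the gene, whereas the C4-2B peak ended 260 bp past the TSS. The value is averaged over a peak, and the part of the width in this difference was not tested. KCNJ10, the glial channel, had a weak H3K27ac promoter peak in C4-2B alone (2.63), KCNJ4 had one in C4-2BER alone (2.35), and KCNJ2, which stabilizes the resting potential of muscle, was at 2.79 and 2.40. KCNJ14 had H3K27ac in C4-2B alone (2.32) and H3K18ac in C4-2BER alone (3.83), the latter from a peak that reached only the edge of the window, ending 944 bp before the TSS. KCNJ6, a channel opened by G proteins, had H3K18ac in C4-2B only (2.83). KCNJ18 had weak promoter peaks of both marks in C4-2B alone (2.48 and 2.51), but it is nearly identical to KCNJ12 and reads may have been lost or assigned to its copy, so the value is uncertain.

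Among two-pore channels KCNK1 had the strongest promoter in both lines and both marks, with H3K27ac at 32.6 in C4-2B and 21.1 in C4-2BER (log2 -0.63) and H3K18ac at 12.9 and 9.29. KCNK15 was called increased for H3K27ac, with 5.02 in C4-2BER and no peak in the C4-2B window, and its H3K18ac was nearly level at 3.53 and 3.85. The C4-2BER peak began 230 bp after the TSS, and over the gene body C4-2B also had a peak (3.86), outside the window. KCNK9 had a weak H3K27ac peak in C4-2BER alone (2.13). No two-pore promoter was called decreased in either mark.

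Of the auxiliary genes, KCNAB3 gave the largest increase of H3K27ac, from 2.49 to 11.7 (log2 2.24), but in a region that also holds the promoter of a neighbouring gene. In C4-2BER 1 peak ran from -3698 to 1153 bp around the KCNAB3 start, and in C4-2B a small peak inside the window stood apart from a neighbouring one, so that windows of 2000 bp reversed the ratio (log2 -0.36). For H3K18ac the gene had 6.00 in C4-2B and no peak in C4-2BER, a call that also ended with windows of 2000 bp. KCNAB2 had weak peaks of both marks in C4-2B alone (2.47 and 2.27). KCNE1 and KCNE2 had H3K18ac in the window in C4-2B alone (2.85 and 2.49), although KCNE1 had 363 bases under an H3K18ac peak in C4-2BER outside the window. KCNIP4, which binds the A-type channels, was at 2.61 and 2.94 for H3K27ac.

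**Figure D3:**
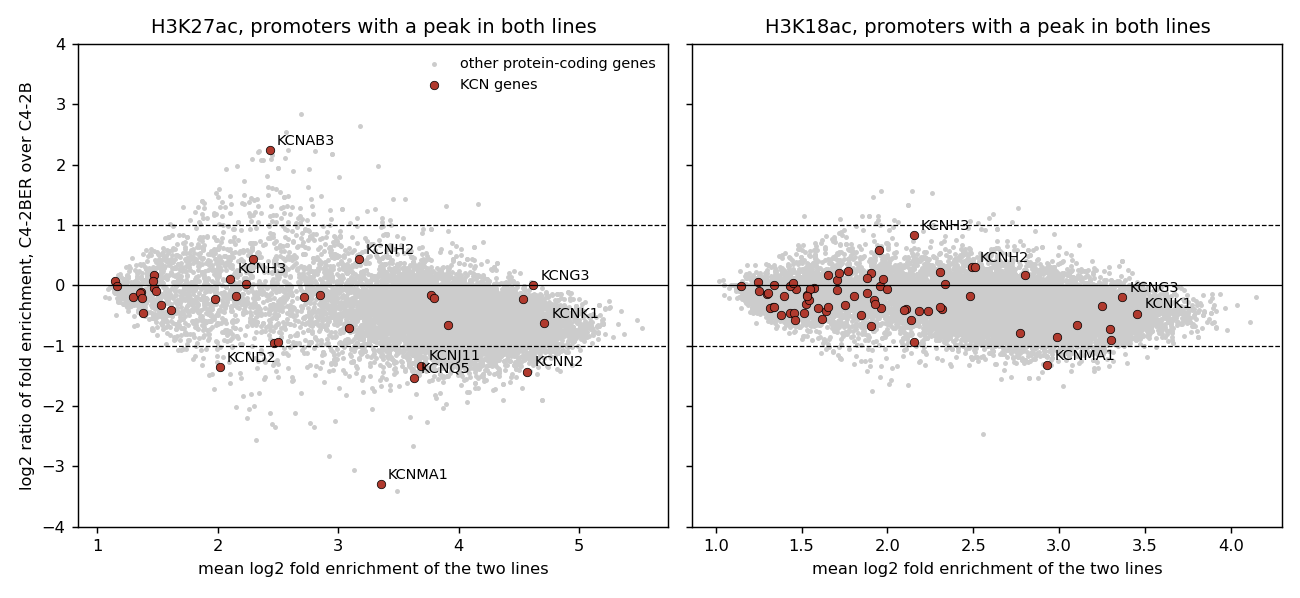
Log2 ratio of promoter fold enrichment, C4-2BER over C4-2B, against the mean log2 fold enrichment of the lines, for promoters with a peak in both, H3K27ac at left and H3K18ac at right. KCN genes (filled) lay mostly at low enrichment, KCNMA1 was far below the other KCN genes in H3K27ac (-3.30), and dashed lines mark a 2-fold difference.

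Peaks over the gene body were counted next, since KCN genes are long: 34 of 96 (35.4%) spanned at least 100 kb, against 18.3% of all genes. The bases of each gene under H3K27ac peaks were compared, and a gene was called where 1 line had none or at least 2 times fewer. Of 71 KCN genes with H3K27ac cover in either line, 20 had more in C4-2BER (28.2%, against 17.5% of all covered genes) and 17 had less (23.9% against 7.05%). For H3K18ac, of 91 covered genes, 10 had more (11% against 11.6%) and 24 had less (26.4% against 14.5%). Cover of H3K27ac over the whole family was 332 kb in C4-2BER and 397 kb in C4-2B, or 2.50% and 2.99% of the gene bodies, whereas over all genes it was 7.77% and 6.46%. Cover depends on how many weak peaks each list holds, and 26 KCN genes overlap another protein-coding gene.

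**Figure D4:**
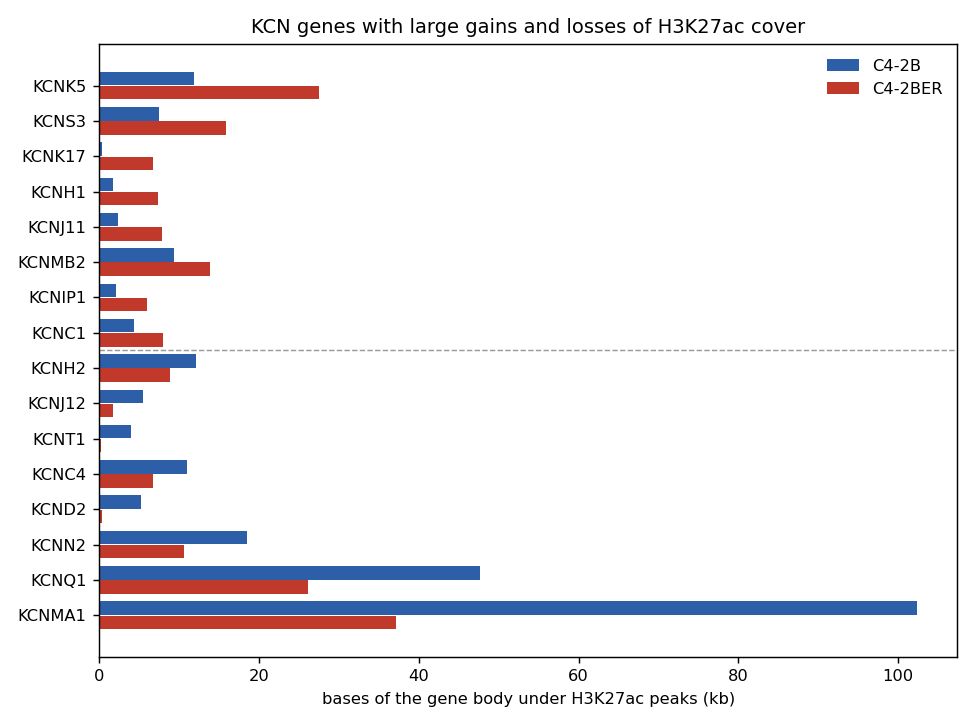
Kilobases of gene body under H3K27ac peaks in each line for the 8 KCN genes with the largest gains (above the dashed line) and 8 of those with the largest losses. KCNMA1 had 102 kb in C4-2B and 37.2 kb in C4-2BER, and KCNK5 had 11.9 and 27.5 kb.

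A single gene held the difference in total cover, since without KCNMA1 the remaining 95 genes had 295 kb in each line. KCNMA1 had 102 kb under H3K27ac in C4-2B and 37.2 kb in C4-2BER, in 48 regions when the peaks of the lines were merged. Of these 28 were found in C4-2B alone, 3 in C4-2BER alone and 17 in both, and 15 of the 17 were lower in C4-2BER. The broadest, in intron 1 at chr10:77485286-77511290, was 26005 bp long. It was 1 peak of 7.46 in C4-2B, and in C4-2BER 5 separate peaks of 2.42 to 3.34 with a mean of 2.91 weighted by width, as region values were formed throughout. Not all of the gene followed, since a region in intron 5 at chr10:77154954-77158781 was at 8.18 in C4-2B and 10.2 in C4-2BER, and another in intron 2 at chr10:77370968-77376068 was at 8.33 and 8.68. H3K18ac cover of KCNMA1 was nearly level, at 184 kb and 174 kb, with 70 of 113 regions found in both lines, of which 61 were lower in C4-2BER. Lower values in C4-2BER were common, as the median log2 ratio over shared regions of all genes was -0.21 for H3K27ac and -0.13 for H3K18ac. In KCNMA1 these medians were -0.66 and -0.21.

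**Figure D5:**
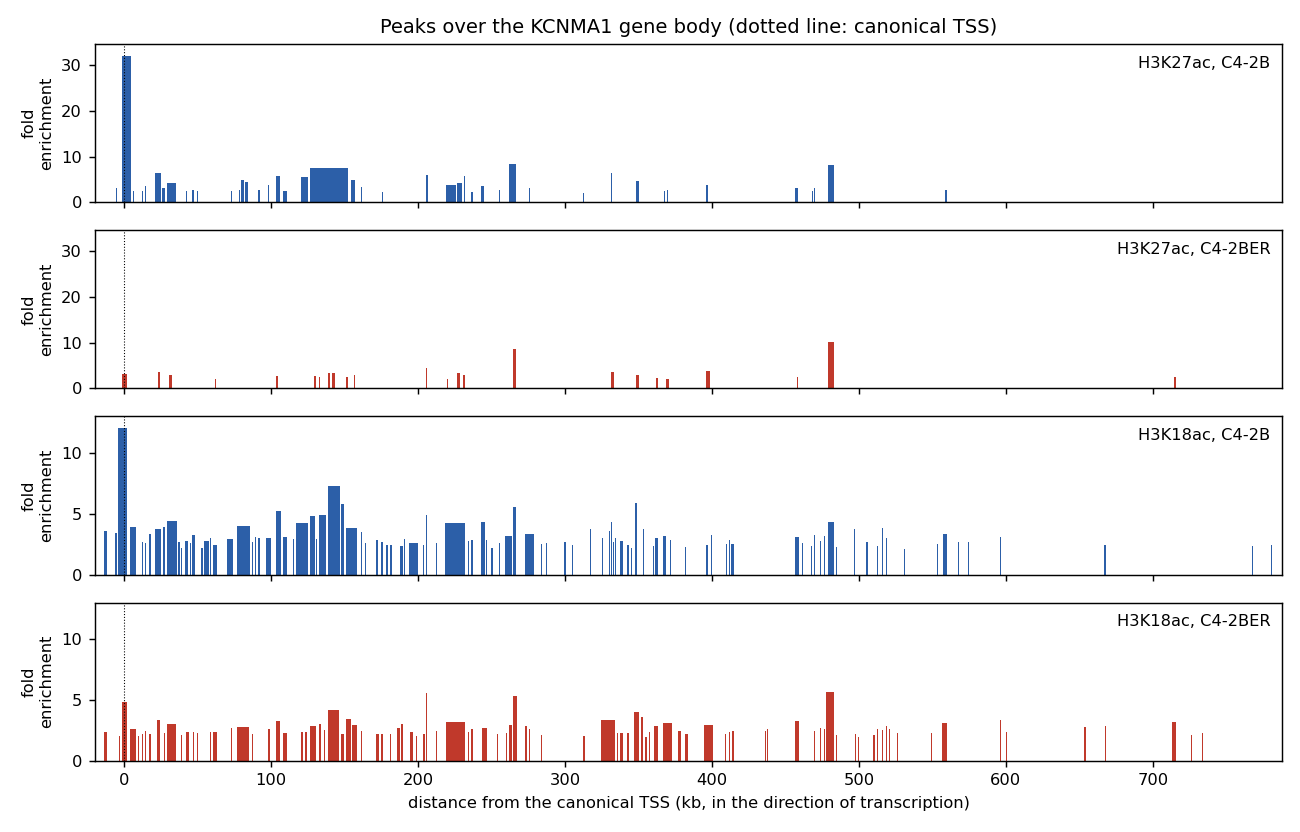
Peaks over KCNMA1 by distance from the canonical TSS (kb), drawn at their fold enrichment, with 1 panel per mark and line, and narrow peaks widened to be visible. The H3K27ac peak at the TSS stood at 32.1 in C4-2B and 3.26 in C4-2BER, while the intron 5 peak about 481 kb downstream was present in both.

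Less H3K27ac cover in C4-2BER was also found at KCNQ1 (47.7 kb in C4-2B and 26.2 kb in C4-2BER), KCNN2 (18.6 and 10.6 kb) and KCND2 (5.25 and 0.302 kb). KCNQ1 had 29 regions in C4-2B alone and 4 in C4-2BER alone, yet its strongest region, in intron 11 at chr11:2698505-2701982, was kept at 26.2 and 21.0. KCND2 kept only its promoter peak, and its 6 intronic regions, with fold enrichments from 2.18 to 4.03, were found in C4-2B alone. In KCNN2, 9 of 16 regions were C4-2B alone. KCNT1 likewise had 5 of 6 regions in C4-2B alone.

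The largest gains were at KCNK5 (27.5 kb in C4-2BER and 11.9 kb in C4-2B), KCNS3 (15.9 and 7.48 kb), KCNK17 (6.70 and 0.321 kb), KCNH1 (7.38 and 1.79 kb) and KCNJ11 (7.84 and 2.36 kb). KCNK5 and KCNK17, both two-pore channels open at alkaline pH, lie close together on chromosome 6, with KCNK16 beyond them. KCNK5 had 3 intronic or exonic regions in C4-2BER alone and its broad intron 1 region, chr6:39199360-39210286, was at 4.02 in C4-2BER and 3.28 in C4-2B, whereas its promoter went the other way, at 6.66 and 10.9. In KCNH1, a channel of brain and of many tumours, a region of intron 10 at chr1:210706889-210709398 was at 7.05 and 2.70, and 3 further regions of that intron were found in C4-2BER alone. In KCNS3 most of the regions with higher signal in C4-2BER lay beyond the canonical transcript but within the annotated gene, the largest being chr2:17960693-17961727, at 9.40 in C4-2BER and 2.73 in C4-2B. In KCNK5, KCNH1 and KCNS3 the promoter value was lower in C4-2BER while the cover was higher. The promoter peak was wider in C4-2BER at KCNK5 (6330 against 1535 bp) and KCNH1 (1006 against 279 bp), and the part of the width in the averaged values was not tested.

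Counted as regions, 390 H3K27ac regions lay over KCN bodies, of which 158 were found in both lines, 80 (20.5%) in C4-2BER alone and 152 (39%) in C4-2B alone, whereas over all genes 26.3% were in C4-2BER alone and 19.9% in C4-2B alone. Leaving out KCNMA1 and KCNQ1 brought the C4-2B share to 31.7%. Most of the C4-2B regions, 114 of 152, lay in introns. For H3K18ac the shares were close to those of all genes, 21.3% against 23.8% in C4-2BER alone and 23.1% against 23.5% in C4-2B alone.

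Other genes of excitability were scored for comparison. Of 14 voltage-gated sodium channel genes 6 had an H3K27ac promoter peak in each line and none was called changed in either mark. Of 26 calcium channel genes 12 in C4-2BER and 11 in C4-2B had one, with 2 increased (CACNA1C and CACNA2D3) and 1 decreased (CACNA2D1). Of the 4 HCN genes, which encode pacemaker channels, 2 were marked in each line. Of 14 partners of potassium channels 6 were marked in each line, among them ABCC8, the regulatory partner of KCNJ11, at 2.95 in C4-2B and 3.53 in C4-2BER, and LRRC26, a partner of KCNMA1 in epithelia, which stayed high at 28.9 and 22.4. Over these 58 genes 3 were called increased and 2 decreased for H3K27ac, and 2 increased and 5 decreased for H3K18ac. Over all protein-coding genes 3.31% were called increased and 8.01% decreased for H3K27ac, and 2.1% and 6.12% for H3K18ac. An H3K27ac promoter peak was present at 69.6% of all genes in C4-2BER and 69.1% in C4-2B.

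A search was made for the letters of RE1, the element bound by REST, the repressor that keeps neuronal genes off outside neurons. Its left part, TTCAGCACC, was sought on both strands within 1000 bp of the TSS and was found at 8 of 96 KCN promoters (8.33%, 4.28 to 15.6), against 2.81% of all promoters. With GGACAG following 2 bases later it was found at 1 KCN promoter (1.04%) and at 0.15% of all. That match was in KCNH4, at chr17:42180283-42180303 on the minus strand, 849 bp downstream of the TSS, and is shown because it is the only match to both parts, which are in capitals.
KCNH4 RE1 match: TTCAGCACCttGGACAGccac
Matches to the left part were at KCNC1, KCNC2, KCNG3, KCNH6 and KCNK3 among others, genes with H3K27ac fold enrichments from no peak to 24.6. A match is letters only, and REST binding was not measured.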

How the data were processed

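ChIP-seq of H3K27ac and H3K18ac was analysed in C4-2B and C4-2BER cells from 4 deposited peak lists, made from 8 ChIP libraries and 2 inputs. The authors aligned reads with bowtie2 to GRCh38/hg38, removed blacklisted regions, poor alignments and duplicates, merged replicates, and called broad peaks with macs2 against input. The macs2 version was not given in the sources used here. Their submitted notes list Bowtie2 2.2.3 and Trimmomatic 0.33. The deposited columns are fold enrichment (a ratio over local background), the −log10 q-value, and a −log10 p-value and a display score that were not used. No read counts were used, so depth is unknown and no test was made.

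Peaks were joined to GENCODE 44 in Python 3.11.15 (pandas 2.3.3). A promoter was the canonical TSS ± 1000 bp and took its strongest peak. A change was a peak in 1 line or a ratio of at least 2. Body cover was the number of bases from gene start to end under peaks. CpG-rich meant an observed-to-expected CpG of at least 0.6 and GC of at least 55% within 500 bp of the TSS. The steps were tested on simulated data with planted peaks. The genes named were those with a called promoter, the 3 highest H3K27ac promoters per line, the 5 largest gains and the 5 largest losses of H3K27ac cover, and 20 genes of known role. Genes outside this rule, such as KCNG1, KCNH3 and KCNT1, were added after their values were seen. The members and lists were chosen with earlier results of these data known. Some items that the rule covers are not reported here.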

Additional observations from a re-analysis of the deposited data

How the results depend on the processing

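No paired analysis was possible because the replicates were merged before peaks were called, and for the same reason leaving out each replicate was not run. KCNMA1 kept its decrease in both marks under 9 of 10 alternatives, missing it where presence of a peak alone was counted. KCNK15 kept its call under 9, KCND2 and KCNQ5 under 8, and KCNN2 and KCNJ11 under 7. KCND2, KCNQ5, KCNN2 and KCNJ11 lost the call when centred on GC content, and KCNN2 and KCNJ11 also under rescaling. The weak peaks did not hold: H3K27ac increases numbered 2 with peaks of at least 4-fold enrichment, with −log10 q-values of at least 5, or with equal numbers of the highest peaks (1.93%, 2.64% and 1.98% of all genes). H3K27ac decreases numbered 6 with q-values of at least 5, equal numbers of peaks or centring on GC content (6.74%, 7.32% and 2.75% of all genes), and 5 by presence alone (2.28%). H3K18ac increases numbered 3 with windows of 2000 bp upstream and 500 bp downstream, 2 with 2000 bp on both sides, 4 at 4-fold, 8 at the q-value, 2 rescaled, 3 with equal numbers and 2 centred on GC (1.62% to 2.4% of all genes), and its decreases 5 at the q-value (3.62%). KCNAB3 reversed in both wider windows (log2 H3K27ac -0.36). H3K27ac promoter peaks in C4-2BER numbered 20 at 4-fold, 23 at the q-value and 22 with equal numbers (62.4%, 65.0% and 63.4% of all genes), and in C4-2B 22, 23 and 23 (62.3%, 63.9% and 63.6%). H3K18ac promoter peaks numbered 22 and 43 in C4-2BER and 30 and 39 in C4-2B at 4-fold and at the q-value (61.0% to 68.6% of all genes). Genes with more H3K27ac body cover numbered 13 at 4-fold (15.8% of covered genes), and those with less 8 at the q-value and 11 with equal numbers (5.32% and 7.3%). Those with more H3K18ac cover numbered 18 at the q-value, 18 with equal numbers and 20 at a ratio of 1.5 (22%, 16.1% and 22%), and those with less 13 at the q-value (8.28%). The cause was not tested, beyond the stricter limits leaving fewer peaks. The other 56 family counts stayed within 1.5 times, though not always of the same genes: 13 H3K18ac decreases at 4-fold held 2 of the 12, and 14 genes with less H3K27ac cover at 4-fold held 5 of the 17. Rescaling moved the median log2 ratio of all promoters from -0.51 to -0.11 for H3K27ac and from -0.34 to -0.14 for H3K18ac. Leaving out members with a shared window, chosen after seeing the data, left 5 H3K27ac increases and 10 decreases.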

Other observations

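Cover of the gene bodies by H3K18ac peaks differed most at the following genes. KCNQ1 had 235 kb under H3K18ac peaks in C4-2B and 128 kb in C4-2BER, the largest difference in kilobases of the family. KCNT1 had 80.2 and 21.7 kb, and KCNAB2, an auxiliary subunit of voltage-gated channels, had 79.7 and 36.9 kb. In the other direction KCNAB1, a related subunit, had 24.6 kb in C4-2B and 55.9 kb in C4-2BER, although its promoter carried only a weak H3K18ac peak in each line (3.15 and 2.30) and no H3K27ac. KCNS3 had 15.6 and 38.3 kb. For KCN genes under 100 kb, 18 of 57 had at least 2 times less cover or none in C4-2BER (31.6%, against 16.7% of all covered genes of that length), and for those of at least 100 kb 6 of 34 did (17.6% against 5.65%). These counts were chosen after the values were seen, and no test was made, since the lists merge the replicates.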
